A study of Mus musculus with 8 samples.

Results

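Small nucleolar RNAs (snoRNAs), their relatives of the Cajal body and the long non-coding genes that host them were examined by RNA sequencing of mouse bone marrow cells. Entries of the count table were chosen by gene symbol alone, as those beginning with Snora, Snord, Scarna or Snhg followed by a digit, together with Gas5. This gave 129 of 37991 gene identifiers. Of these, 72 were C/D box snoRNAs (Snord), 39 were H/ACA box snoRNAs (Snora), 9 were small Cajal body RNAs (Scarna) and 9 were host gene entries. The host entries were Gas5, Snhg3, Snhg9, Snhg11, Snhg12, Snhg15, Snhg17, Snhg20 and Snhg7os, an opposite-strand entry whose symbol met the rule.

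The cells were Flt3- LSK cells, the bone marrow fraction with haematopoietic stem cells and early progenitors, sorted from C57BL/6J mice at 24000 cells per sample. Samples of 1 group were labelled WT, with the genotype wild type, and the design text gives them as Runx1f/f. The other group was labelled Mut, with the genotype Runx1 deficient. The age of the mice, the Cre line that removed Runx1 and any pooling of animals were not given in the sources used here. Each group had 2 samples, and each sample name appeared in a polyA-selected and in a total RNA library, with ERCC spike-in RNA added to all. Gene counts were 35096252 to 37924699 in the 4 polyA libraries and 967694 to 1218437 in the 4 total RNA libraries, where ribosomal RNA took 93.3 to 94.5% of all counts. Runx1, the gene named in the labels, stood at 203 and 209 CPM (gene counts scaled to a common library total) in the WT and 747 and 922 in the Mut-labelled polyA libraries. That order is the reverse of what loss of the whole transcript would give. Counts are per gene, and the part of Runx1 removed was not given in the sources used here, so they cannot check the labels. The group is therefore called Mut-labelled, and every direction between genotypes rests on the labels. Kit, a defining marker of the sort, stood at 891 to 1080 CPM in the polyA libraries and Ly6a at 24.0 to 38.9 CPM, while Flt3, which the gate is meant to lack, was present at 57.1 to 156 CPM.

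Most snoRNAs of mammals are cut out of the introns of host genes after splicing, and a few are transcribed from promoters of their own. C/D box snoRNAs bind fibrillarin and guide 2'-O-methylation, and H/ACA box snoRNAs bind dyskerin and guide pseudouridylation, mostly of ribosomal RNA, while small Cajal body RNAs guide the same modifications on spliceosomal RNAs. The mature RNAs carry no polyA tail, whereas the spliced transcripts of Gas5 and the Snhg genes are polyadenylated and are known to be short-lived because nonsense-mediated decay acts on many of them.

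The classes were set by gene symbol, and the sequences of some entries are shown to illustrate them. The sequences below are GENCODE M21 (GRCm38) transcripts, 5' to 3', and no count or test used them. Scarna2 is given by its last stretch, from position 265 to 414. In the C/D box RNAs and in Scarna2, which has such boxes, capitals mark the first C box letters TGATGA and the D box letters CTGA near the 3' end.
Snord118: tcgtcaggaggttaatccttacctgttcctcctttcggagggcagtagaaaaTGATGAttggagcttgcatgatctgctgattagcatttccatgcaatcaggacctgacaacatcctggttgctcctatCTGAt
Snord15a: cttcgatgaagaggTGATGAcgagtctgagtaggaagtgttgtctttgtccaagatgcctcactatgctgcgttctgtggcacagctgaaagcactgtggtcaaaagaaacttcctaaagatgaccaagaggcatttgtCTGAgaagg
Snord104: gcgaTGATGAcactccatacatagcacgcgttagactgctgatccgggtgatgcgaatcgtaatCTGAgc
Scarna2: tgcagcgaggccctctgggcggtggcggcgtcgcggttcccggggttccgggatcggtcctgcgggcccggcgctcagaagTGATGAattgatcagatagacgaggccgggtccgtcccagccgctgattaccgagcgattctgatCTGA
Snord118, also known as U8, and Snord13, also known as U13, act in ribosomal RNA processing and in its acetylation, respectively. In GENCODE M21 both lie in no other gene on their strand and overlap no exon on either strand, small RNA genes aside. The same holds for Snord104 and Scarna2. Introns of genes on the opposite strand were not checked. In H/ACA box RNAs capitals mark the last ACA within the final 8 nt. In Snora23 it overlaps an earlier ACA, so the marked letters need not be the box itself.
Snora23: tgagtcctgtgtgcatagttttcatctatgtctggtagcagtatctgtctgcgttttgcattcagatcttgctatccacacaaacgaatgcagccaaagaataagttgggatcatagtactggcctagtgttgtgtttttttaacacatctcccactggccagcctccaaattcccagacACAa
Snora24: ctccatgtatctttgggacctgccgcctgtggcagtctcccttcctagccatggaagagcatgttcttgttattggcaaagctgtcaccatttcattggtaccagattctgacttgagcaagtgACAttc
Snora23 lies in an intron of Ipo7 and Snora24 inside an annotated exon of the host gene Snhg8. The letters TGATGA, searched anywhere on the RNA strand, were in 52 of the 72 C/D box entries (72.2%), and CTGA, searched in the last 15 nt, was in 66 (91.7%). The searches can share letters where CTGATGA occurs. ACA in the last 8 nt was in 37 of the 39 H/ACA box entries (94.9%), of which 0 held TGATGA. Among the other 1109 snoRNA and small Cajal body RNA entries of the table, 11.1% held TGATGA, 15.6% the CTGA and 55.5% the ACA. A match to these letters is a description of the annotated sequence.

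Of the 129 entries, 81 had at least 1 count in the polyA libraries and 80 in the total RNA libraries. Both kinds of library gave counts for 77 entries, and 45 entries (30 C/D box and 15 H/ACA box) had 0 counts in all 8 libraries. All 9 small Cajal body RNAs had counts in both kinds. A single library held counts for 68 to 75 entries in the polyA and 58 to 67 in the total RNA libraries. Counts in every library of a kind were found for 56 entries in polyA and 47 in total RNA. At least 10 counts over the 4 libraries were reached by 72 entries in polyA and by 41 in total RNA. The near-equal numbers arose at unequal depth. At 967694 gene counts in each library, the gene count of the shallowest one, 59.8 entries would be expected with counts in the polyA and 78.7 in the total RNA libraries.

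The entries found in 1 kind alone were few. Snord118 had 83 and 48 counts in the WT and 119 and 49 in the Mut-labelled total RNA libraries, and 0 counts in each polyA library. Snord13 had 8 and 10 counts in the WT and 17 and 14 in the Mut-labelled total RNA libraries, again with 0 counts in polyA. Both are transcribed from their own promoters. A count of 0 in a polyA library allows a level of up to 0.0741 to 0.0811 CPM (3 counts), for counting error only, and in a total RNA library up to 2.66 to 3.41 CPM. Snord92, the third of these, had 1 count. In the opposite direction, Snord59a, an intronic snoRNA of Atp5b, had 28, 10, 36 and 12 counts in the polyA libraries and 0 in total RNA, where its level was below what this depth can show. Snhg11 (12 counts), Snord61 (4) and Snord90 (1) were also seen in polyA libraries alone.

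Whether a snoRNA entry had any counts went with where GENCODE M21 places it. Of 51 snoRNA and Cajal body RNA entries lying wholly inside an annotated exon of another gene, 37 (72.5%) had 0 counts in all 8 libraries. Of 51 entries lying in an intron, 4 (7.84%) were at 0, namely Snora35, Snord123, Snord32a and Snord34. Of 10 entries that lay partly in an exon, 2 were at 0 (Snora73a and Snord67). Of 8 entries with no host gene on their strand and no exon overlap, 2 were at 0 (Snora17 and Snora43). The C/D box class showed it with 26 of 32 exonic and 3 of 33 intronic entries at 0, and the H/ACA box class with 11 of 19 and 1 of 13. How reads in overlapping genes were assigned, not given in the sources used here, is unknown, and its part in this pattern was not tested. An entry at 0 is therefore reported as without counts, not as unexpressed.

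**Figure D1:**
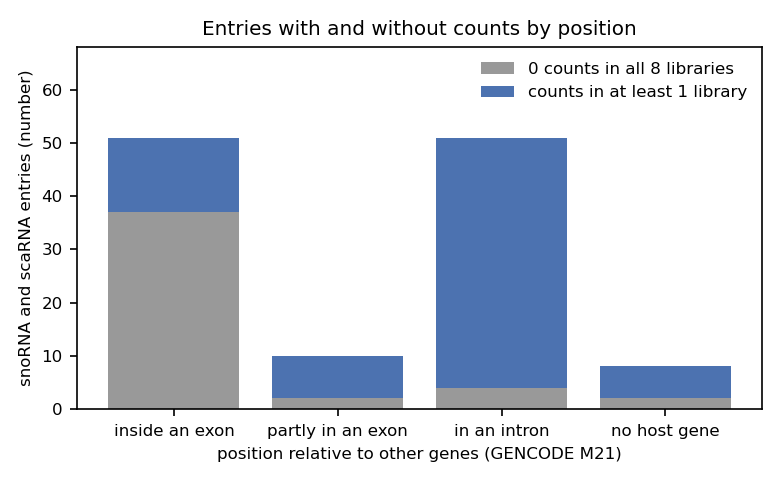
Number of snoRNA and small Cajal body RNA entries (vertical axis) by position in GENCODE M21 (horizontal axis), with entries at 0 counts in all 8 libraries in grey and entries with counts in at least 1 library in blue. The grey part holds 37 of 51 entries inside an exon and 4 of 51 entries in an intron.

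The snoRNA entries of several Snhg hosts had no counts. Gas5 hosts C/D box snoRNAs, and its 3 entries with a symbol in the table, Snord47, Snord78 and Snord80, lie inside annotated exons and had 0 counts in all 8 libraries. Snord47 and Snord78 are shown because their host was the most counted of all 129 entries in the polyA libraries while they had none. Capitals mark the same boxes as above, and the annotated Snord78 sequence has no TGATGA.
Snord47: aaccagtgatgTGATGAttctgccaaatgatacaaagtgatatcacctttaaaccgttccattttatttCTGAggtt
Snord78: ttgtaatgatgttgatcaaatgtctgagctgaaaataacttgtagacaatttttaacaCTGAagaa
Snord22 of Snhg1, Snora73a and Snora73b of Snhg3, Snora9 of Snhg15 and Snord123 of Snhg18 were also at 0. Of the 4 entries in Snhg12, Snora44, Snora61 and Snord99 were at 0, and Snora16a had counts. Snora78 of Snhg9, Snora24 of Snhg8, Snord87 of Snhg6 and Scarna13 of Snhg10 had counts. Of the 14 exonic entries with counts, 8 were H/ACA box and 6 C/D box RNAs, among them Snora24, Snora74a, Snora7a and Snord19. Snora24 had the most polyA counts of the 14, at 311 and 400 in WT and 198 and 250 in Mut-labelled libraries.

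The make-up of the set differed between the kinds of library. Host genes held 86.9 to 87.9% of the counts of the 129 entries in polyA libraries and 9.35 to 13.3% in total RNA libraries. Gas5 alone held 64.3 to 65.5% of them in polyA and 6.27 to 9.22% in total RNA. Scarna2, a guide RNA for a spliceosomal RNA, held 0.481 to 0.614% in polyA and 33.7 to 40% in total RNA libraries, where it was the most counted entry. These ranges do not overlap for any of the 3.

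As a share of all gene counts, the 129 entries together went from 0.0637 ± 0.0055% in polyA to 0.29 ± 0.0311% in total RNA libraries (SD, n = 4 each), a ratio of 4.55. The hosts went the other way, from 0.0556 ± 0.00498% to 0.0343 ± 0.00236% (SD, n = 4 each), a ratio of 0.616. C/D box RNAs stood at 0.00402 ± 0.000222% and 0.0449 ± 0.0157% (ratio 11.2), H/ACA box RNAs at 0.00343 ± 0.000382% and 0.0522 ± 0.0106% (ratio 15.2), and Cajal body RNAs at 0.000629 ± 4.48e-05% and 0.159 ± 0.00936% (ratio 252). Within each of these classes the 4 libraries of one kind lay apart from the 4 of the other. The C/D box ratio rested on few entries. In total RNA Snord17 had 1113 counts and Snord118 299, against 222 for the 61 C/D box entries under 100 nt together. In CPM without further scaling, those 61 summed to 37.3 in polyA and 52.5 in total RNA. The summed shares were not tested. The other 1109 snoRNA and Cajal body RNA entries, of which 820 (73.9%) had no counts at all, showed a ratio of 16.6, between those of the H/ACA box and the Cajal body class. With all counts, ribosomal RNA included, as the denominator, the ratio for the 129 entries was 0.265, since ribosomal RNA filled the total RNA libraries.

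The kinds of library were then compared gene by gene, with all 8 libraries in 1 fit and CPM scaled over all 8. Of 17416 genes tested with edgeR's quasi-likelihood test, 1304 (7.49%) were called higher and 1330 (7.64%) lower in total RNA at an adjusted p under 0.05, which is 15.1% in all. Among the 129 entries, 70 passed the filter on low counts, and of these 32 were called higher and 1 lower, while 38 had an unadjusted p below 0.05. Of the 59 entries not tested, 45 had no counts and 14 had too few. Because an entry can pass the filter through its high group alone, the 55 entries that also passed on the polyA libraries by themselves were counted apart, and 21 of them were called higher and 1 lower. The 5 entries that passed through the total RNA libraries alone, Snora23, Snora78, Snord118, Snord13 and Snord15a, were all called higher. The scaling sets where 0 lies among all genes, and ERCC scaling moved their median log2 ratio (the fitted log2 fold change) from -0.10 to -0.80. The counts of all genes called higher and lower were 1461 and 751 with size factors of the DESeq2 type, 1142 and 3376 with gene counts and no further scaling, and 212 and 33 with ERCC scaling. For the 129 entries they were 32 and 1, 33 and 3, and 26 and 0. With the sample name as a block the fit called 4895 genes, and 33 of the entries higher and 2 lower.

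**Figure D2:**
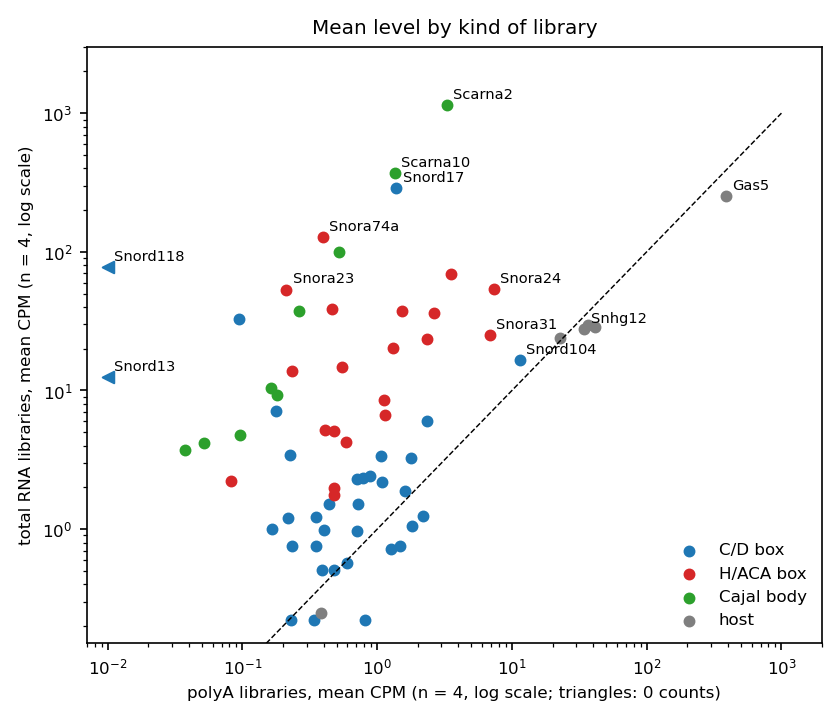
Mean CPM over 4 polyA libraries (horizontal log axis) and over 4 total RNA libraries (vertical log axis) for each tested entry with counts in total RNA, coloured by class, with equal levels on the dashed line and entries at 0 polyA counts drawn as triangles at the left edge. Cajal body RNAs and H/ACA box RNAs lie above the line and Gas5 below it.

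All 9 small Cajal body RNAs were called higher in total RNA, among them the 5 that passed the filter on the polyA libraries by themselves. Scarna2 had 3.68, 3.11, 2.57 and 3.74 CPM in the polyA libraries (WT replicates 1 and 2, then Mut-labelled replicates 1 and 2) and 1089, 1130, 1240 and 1125 CPM in the total RNA libraries. Each total RNA library thus lay far above each polyA library, and the log2 ratio was 8.45 (SE 0.17, adjusted p = 9.7e-11). Scarna10, which lies partly in an exon of Ncapd2, had 0.795, 1.63, 1.46 and 1.55 CPM in polyA and 322, 291, 482 and 377 CPM in total RNA libraries. Its log2 ratio was 8.06 (SE 0.21, adjusted p = 5.9e-10). Scarna13, hosted by Snhg10, had a log2 ratio of 7.58 (SE 0.29) and Scarna6 of 7.11 (SE 0.40). The class ranged from 5.49 to 8.45 with a median of 6.67, against a median of -0.10 over all genes tested.

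Of 20 tested H/ACA box RNAs, 17 were called higher and 0 lower, and of the 17 that passed on the polyA libraries by themselves 14 were called higher. The median log2 ratio was 3.85 over the 20 tested and 3.89 over the 19 with counts in every group, which ranged from 1.87 to 8.35. Snora23 had 0.522, 0.197, 0 and 0.129 CPM in polyA and 46.9, 50.2, 71.6 and 45.1 CPM in total RNA libraries, a log2 ratio of 8.35 (SE 0.46). Snora74a had 0.397 ± 0.308 and 127 ± 30.9 CPM (SD, n = 4 each), a log2 ratio of 8.34 (SE 0.38). Snora21, an intronic RNA of Rpl23, reached 6.39 (SE 0.36) and Snora57 4.31 (SE 0.29). At the low end stood Snora24, with 7.72, 9.87, 5.35 and 6.45 CPM in polyA and 54.8, 43.0, 73.9 and 44.3 CPM in total RNA libraries, a log2 ratio of 2.89 (SE 0.21). Snora31, named here after its values were seen, was the lowest of the called at 1.87 (SE 0.27, adjusted p = 0.00188). The 3 that did not pass were Snora47 (2.86), Snora2b (2.01) and Snora41, whose counts in both Mut-labelled total RNA libraries were 0.

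C/D box RNAs were divided. Of 35 tested, 6 were called higher and 0 lower, namely Snord118, Snord13, Snord15a, Snord17, Snord23 and Snord8, the last pair named after their values were seen. Of the 27 that passed on the polyA libraries by themselves, 2 were called higher, Snord17 and Snord8. Snord118, Snord13 and Snord15a passed only through the total RNA libraries, where they are high, and Snord23 passed on neither kind by itself. Snord17, in an intron of Snx5, had 1.39 ± 0.276 CPM in polyA and 287 ± 117 CPM in total RNA (SD, n = 4 each), with a log2 ratio of 7.67 (SE 0.29). Snord15a, in an intron of the ribosomal protein gene Rps3, had 0.124, 0.0494, 0 and 0.206 CPM in polyA and 29.9, 24.6, 38.6 and 37.2 CPM in total RNA libraries (log2 ratio 8.31, SE 0.57). Against the floor of 3 counts per library, Snord118 was at least 1010-fold higher in total RNA and Snord13 at least 163-fold higher. In contrast, Snord104 stood at 14.1, 9.43, 10.7 and 11.4 CPM in polyA and 16, 18.4, 18.2 and 13.3 CPM in total RNA libraries. These ranges overlapped, and its log2 ratio was 0.52 (SE 0.25, adjusted p = 0.178). Over the 35 tested C/D box RNAs the median was 0.52, with 19 positive and 16 negative. The fitted values ran from -6.48 to 13.58. Those of entries at 0 in a group are not bounds, and their sign need not be that of the summed level. Over the 22 with counts in every group, a choice that leaves out entries at 0 in total RNA, the median was 1.29, and 1.42 with Snord118 and Snord13 at their bounds, within a range of -1.05 to 8.31.

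Annotated length ran alongside these differences. Entries under 100 nt numbered 63, of which 30 were tested and 2 called higher, both Cajal body RNAs. Of the 28 tested C/D box RNAs under 100 nt, edgeR called 0 (2 at an unadjusted p below 0.05) and DESeq2 called 1. Of 47 entries of 100 to 149 nt, 27 were tested and 23 called higher, and of 10 entries of 150 nt or more, 7 were tested and all 7 called higher. Of the entries that passed on the polyA libraries by themselves, 0 of 24, 15 of 19 and 6 of 6 were called higher in these length groups. The median log2 ratio over all tested entries was -0.45, 3.99 and 8.06, with 16 of the 30 shortest negative. Most of these negative values belong to entries at 0 counts in a group, and their sign need not be that of the summed level. Snord71, for example, had -1.46 with 54 counts in polyA and 5 in the far shallower total RNA libraries. Over entries with counts in every group, 19 of the 30 in the shortest group, the median was 1.13, 3.96 and 8.06. In CPM without further scaling, the summed counts went from 37.5 in polyA to 65.1 in total RNA for the shortest group, from 35.6 to 492 for the middle group, and from 7.86 to 1980 for the longest. Within the C/D box class, 0 of 28 tested entries under 100 nt, 5 of 6 of 100 to 149 nt and Snord17, the 1 tested entry above that, were called higher. Only 2 of those 6 passed on the polyA libraries by themselves, and 1 of them was called (Snord8), so the contrast within the class rests mostly on entries admitted with their high group.

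**Figure D3:**
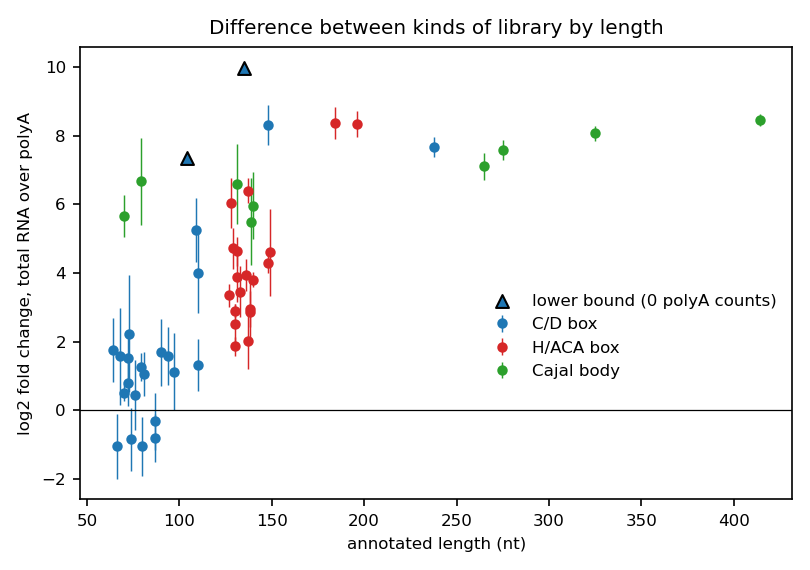
Log2 ratio of total RNA over polyA libraries (vertical axis, bars are SE) against annotated length in nt (horizontal axis) for the 50 snoRNA and Cajal body RNA entries with counts in every group, with lower bounds for Snord118 and Snord13 as triangles. The C/D box points under 100 nt lie between -1.05 and 2.23, and the 7 points above 150 nt lie above 7.

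Across the 50 snoRNA and Cajal body RNA entries with counts in every group, length and log2 ratio had a Spearman correlation of 0.75 and a Pearson correlation of 0.71. Over all 64 tested the Spearman value was 0.72. Inside the length groups it was -0.0031 under 100 nt, 0.091 at 100 to 149 nt and 0.0 at 150 nt or more. Over the 64 tested, the correlation thus lay between the length groups rather than inside them. The 64 include entries at 0 in a group, whose fitted sign need not be that of the summed level. Inside-group values were not computed for the 50. Within classes the Spearman values were 0.44 over 22 C/D box, 0.31 over 19 H/ACA box and 0.8 over 9 Cajal body RNAs. All points share the same 8 libraries and their depth, and class and length go together. Entries under 100 nt have few counts in total RNA (275, against 2078 and 8384 in the longer groups). The correlations are therefore descriptions. Per the labels, polyA-selected RNA was fragmented and its libraries were size-selected on beads. The part of size selection in the pattern was not tested.

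Host genes went the other way or did not pass. Gas5, whose spliced RNA has been studied as a growth arrest transcript, had 418, 403, 346 and 391 CPM in the polyA and 272, 252, 231 and 253 CPM in the total RNA libraries. Every polyA library was above every total RNA library, and the log2 ratio was -0.63 (SE 0.10, adjusted p = 0.0031). With ERCC scaling it was -1.34 and not called (adjusted p = 0.257). Of the other tested hosts, Snhg20 stood at 41.1 ± 4.99 and 28.5 ± 7.11 CPM (SD, n = 4 each; log2 ratio -0.52, adjusted p = 0.0899), and at an adjusted p of 0.0079 with the sample name as a block. Snhg12 had -0.31 and Snhg17 -0.32 (adjusted p = 0.210 and 0.322). Snhg15 had 0.07 (adjusted p = 0.817), with 22.7 ± 1.73 and 24.0 ± 2.30 CPM (SD, n = 4 each), and its direction turned with scalings that moved the median of all genes down. Snhg3 had 59 counts in the 4 polyA libraries and 1 count in total RNA, too few to compare.

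Between genotypes, none of the entries differed beyond the test in the polyA libraries. Of 17128 genes tested there, 624 (3.64%) were called, 300 (1.75%) higher and 324 (1.89%) lower in the Mut-labelled libraries. Of the 129 entries 56 were tested, and edgeR called 0 and DESeq2 called 0, and by either tool 0 had an unadjusted p below 0.05. Their median log2 ratio was -0.09, against -0.01 over all genes, with 26 positive and 30 negative. The 2 groups of libraries did not overlap for 9 entries with higher and 11 with lower levels in the Mut-labelled libraries, against 21.4% and 23.1% of all genes tested. In bulk RNA such as this, fewer cells of a type and less RNA per cell cannot be told apart.

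Apart from Snhg3, the host genes had the largest counts of the tested entries there. Gas5 stood at 443 and 427 CPM in WT, against 366 and 415 CPM in Mut-labelled polyA libraries (CPM scaled within polyA from here on). The groups did not overlap, and the log2 ratio was -0.16 (SE 0.14, adjusted p = 0.738). Snhg20 had 45.5 and 47.6 against 35.6 and 45.1 CPM (log2 ratio -0.21, SE 0.17, adjusted p = 0.696). Snhg17 had 37.7 and 44.9 against 29.6 and 42.8 CPM (-0.19, SE 0.22), Snhg12 40.8 and 35.3 against 35.3 and 34.7 CPM (-0.12, SE 0.16), and Snhg15 26.6 and 22.6 against 22.7 and 24.5 CPM (-0.06, SE 0.19). Snhg3, at 13 and 5 against 23 and 18 counts, had 1.27 with an SE of 0.91 (adjusted p = 0.639). Each of these differences was below 1.5 times its own standard error, which comes from the test statistic and so restates the p-value.

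The smallest p-values in the polyA libraries belonged to Snora69, Snora24 and Snord19. Snora69, in an intron of the ribosomal protein gene Rpl39, had 32 and 21 counts in WT and 8 and 4 in Mut-labelled libraries, a log2 ratio of -2.02 (SE 0.90, adjusted p = 0.371). Snora24 had 8.19 and 10.5 CPM in WT, against 5.66 and 6.84 CPM in Mut-labelled libraries (log2 ratio -0.58, SE 0.28, adjusted p = 0.426). Snord19, inside an exon of Gnl3, had 32 and 51 against 8 and 22 counts (-1.38, SE 0.77, adjusted p = 0.503). In all 3 the WT libraries lay above the Mut-labelled libraries, and none passed the test. Scarna2 (-0.11) and Snord104 (-0.09), given here because their total RNA values follow, changed sign when WT replicate 1 was left out.

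**Figure D4:**
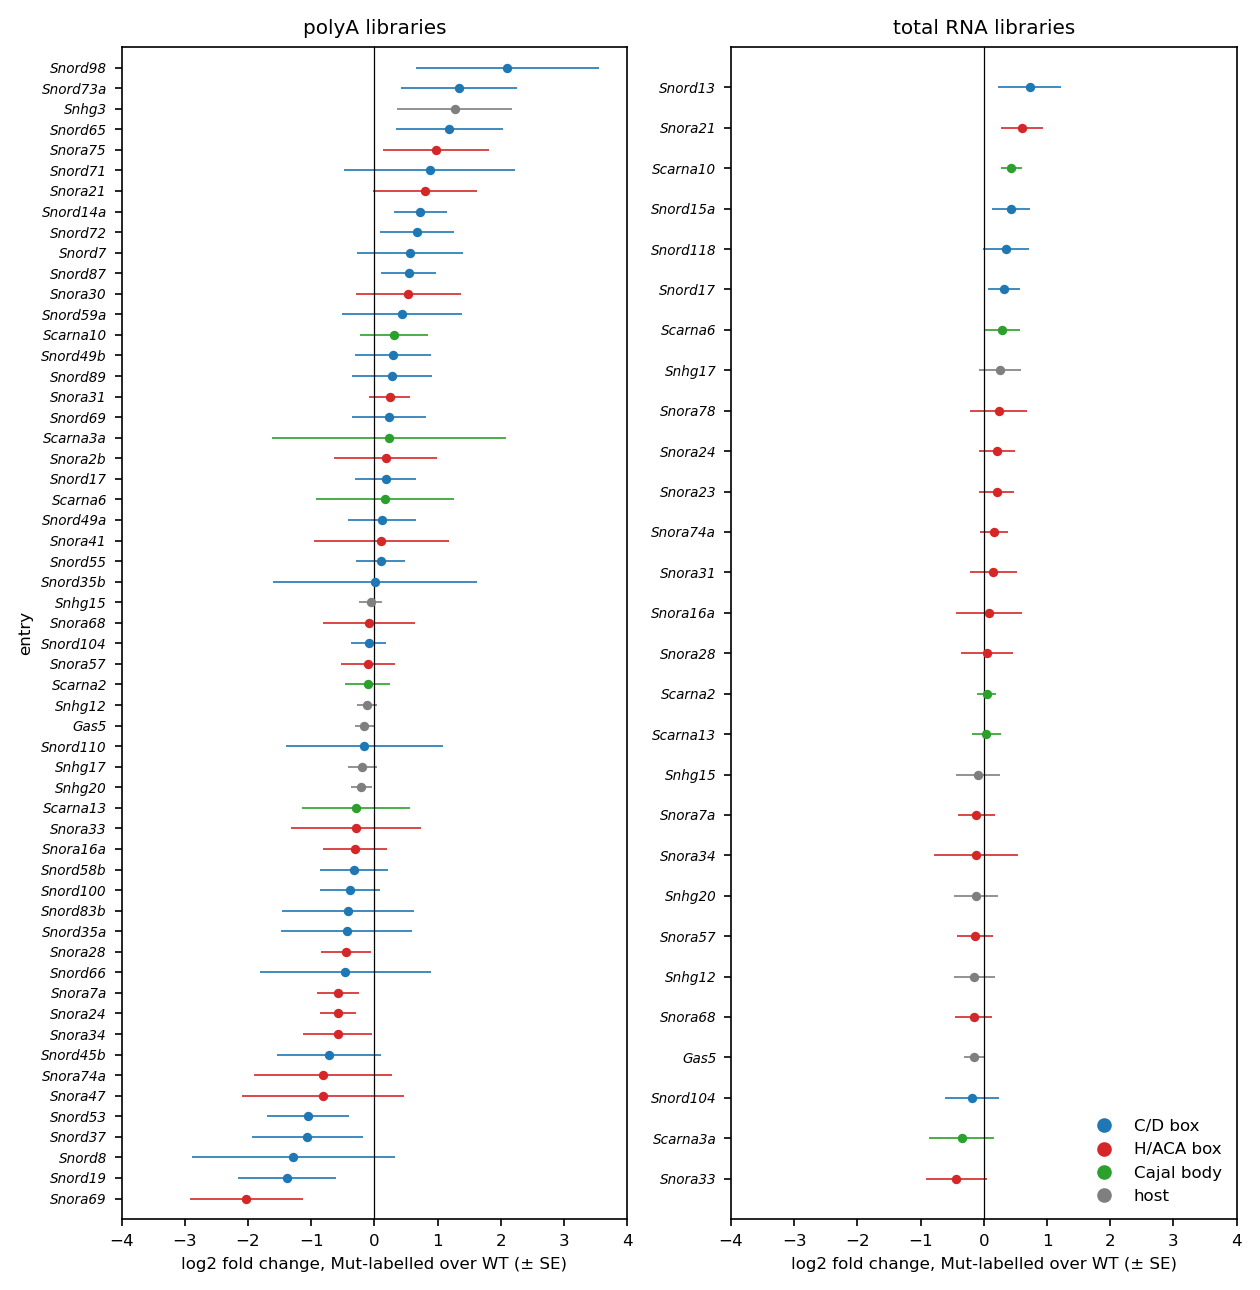
Log2 ratio of Mut-labelled over WT libraries (horizontal axis, bars are SE) for the 56 entries tested in polyA libraries (left) and the 28 tested in total RNA libraries (right), ordered by value and coloured by class. None was called, and the error bars of low-count entries such as Snord98 span more than those of Gas5 and Scarna2.

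In the total RNA libraries 10546 genes were tested and 446 (4.23%) called, 269 (2.55%) higher and 177 (1.68%) lower. Of the 129 entries 28 were tested, and edgeR called 0 and DESeq2 called 0, and by each tool 1 had an unadjusted p below 0.05. The median was 0.07, against 0.00 over all genes, with 17 positive and 11 negative. The groups did not overlap for 4 entries with higher levels (Scarna10, Scarna6, Snord13 and Snord15a) and 1 with a lower level (Gas5) in the Mut-labelled libraries, against 22.5% and 21.4% of all genes.

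Scarna10 had the smallest p, with 308 and 279 CPM in WT, against 448 and 350 CPM in Mut-labelled libraries (CPM scaled within total RNA), a log2 ratio of 0.44 (SE 0.17, adjusted p = 0.189). Snora21 had 27.7 and 29.5 against 60.2 and 28.8 CPM, so that its log2 ratio of 0.60 (SE 0.34, adjusted p = 0.440) came from Mut-labelled replicate 1. Snord13 had 7.64 and 9.84 against 18 and 11.5 CPM (0.72, SE 0.50, adjusted p = 0.568). With ERCC scaling, which moved the median of all genes to -1.10, these 3 moved with it to -0.61, -0.35 and -0.30 and were not called.

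Scarna2, the most counted entry, had 1043 and 1086 CPM in WT, against 1153 and 1045 CPM in Mut-labelled libraries, and its log2 ratio of 0.05 (SE 0.15, adjusted p = 0.941) was the most precise of the set. Gas5 stood at 261 and 242 against 214 and 235 CPM (log2 ratio -0.16, SE 0.16, adjusted p = 0.725). The estimate was thus -0.16 in both kinds of library, and it passed the test in neither. Snhg12 (-0.15), Snhg20 (-0.13), Snhg15 (-0.09) and Snhg17 (0.26) had standard errors of 0.33 to 0.35.

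Mut-labelled replicate 1 stood apart for several snoRNAs of the total RNA libraries. Snord118 had 79.2 and 47.2 CPM in WT, against 126 and 40.3 CPM in Mut-labelled libraries (log2 ratio 0.35, SE 0.36, adjusted p = 0.739). Snord17 had 242 and 238 against 426 and 177 CPM (0.32, SE 0.26, adjusted p = 0.654). Both span the WT values, with replicate 1 above and replicate 2 below them. Without Mut-labelled replicate 2 both were called higher (0.99 at an adjusted p = 0.0125 and 0.83 at 0.00649). Leaving out Mut-labelled replicate 1 gave both a negative value (-0.64 and -0.43). These entries were named after their values were seen. Among the 23 snoRNA and Cajal body RNA entries tested in total RNA, 12 (52.2%) were higher in the libraries numbered 1 than in those numbered 2 within both genotypes, and 2 were lower in both. Over all genes tested there the shares were 27% and 28.2%. In the polyA libraries 10 of 50 entries (20%) were higher in the libraries numbered 1 and 19 lower, against 33.7% and 33.9% of all genes. This count was made after the values were seen.

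**Figure D5:**
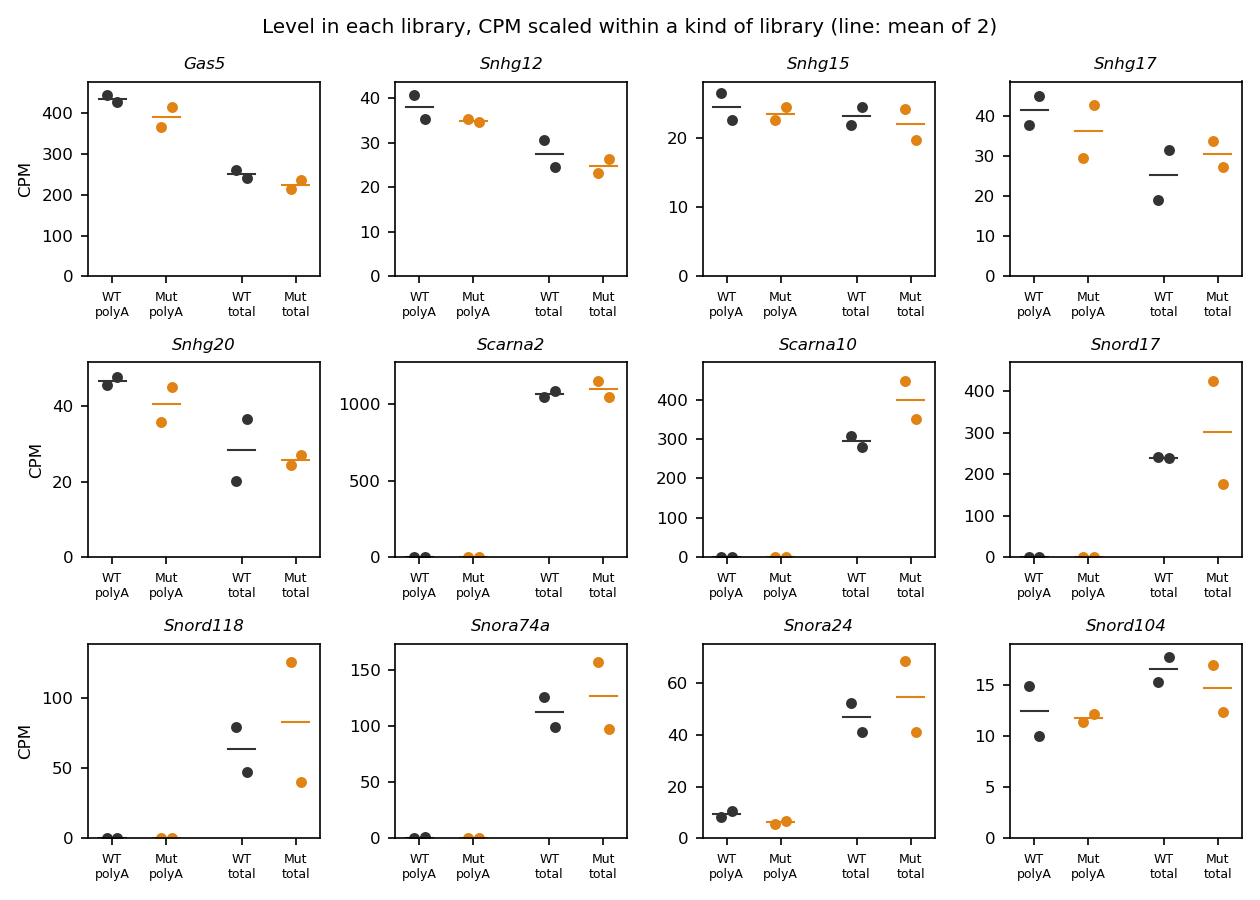
CPM in each of the 8 libraries (vertical axes start at 0; polyA and total RNA libraries were scaled apart) for 5 host genes and 7 snoRNA or Cajal body RNA entries, with WT in black, Mut-labelled in orange, replicate 1 left of replicate 2 and a line at the mean. Hosts have counts in both kinds, with Gas5 lower in total RNA, the Scarna and most snoRNA panels are near 0 in polyA, and Snord17 and Snord118 show the gap between the Mut-labelled total RNA libraries.

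Whether a genotype difference depended on the kind of library was asked with an interaction over all 8 libraries. Of 17416 genes edgeR called 0 (0%) and DESeq2 12, while 686 had an unadjusted p below 0.05 in edgeR. Of the 70 tested entries both tools called 0, and 1 had an unadjusted p below 0.05 in edgeR and 2 in DESeq2. The 1 entry of edgeR was Snora23 (difference of log2 ratios 2.60, SE 0.93, adjusted p = 1.0), with 21 and 8 counts in WT and 0 and 5 in Mut-labelled polyA libraries. In total RNA libraries it had 47 and 49 against 63 and 51 counts. Snora24, named after its values were seen, had log2 ratios of -0.58 in polyA and 0.20 in total RNA libraries, a difference of 0.84 (SE 0.41, adjusted p = 1.0).

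The proteins that bind, build and share genes with snoRNAs were looked at as lists. All 8 tested genes of the mature particles were negative in the polyA libraries, with a median of -0.24, and edgeR and DESeq2 each called 0 of them (1 at an unadjusted p below 0.05 by each tool). Dkc1, the pseudouridine synthase of H/ACA particles, had 192 ± 11.9 and 151 ± 1.76 CPM (SD, n = 2 each; log2 ratio -0.35, adjusted p = 0.251), and Nop56 and Nop58, scaffold proteins of C/D particles, had -0.16 and -0.21. In the total RNA libraries 7 of 8 were negative with a median of -0.15, and each tool called 0 (1 at an unadjusted p below 0.05 in edgeR, 0 in DESeq2). Of 13 assembly factors 12 were negative in polyA (median -0.21) and 6 in total RNA libraries (median 0.08), and in both kinds each tool called 0, with 0 at an unadjusted p below 0.05. Nolc1, a chaperone of snoRNA particles, had -0.33 and -0.19, and the helicase gene Ruvbl2, the most abundant of the list, -0.20 and -0.24. The helicase gene Ruvbl1 had -0.22 and 0.22.

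For protein-coding hosts and decay factors no gene passed between genotypes, in edgeR or in DESeq2. Of 29 protein-coding snoRNA hosts 0 were called in polyA (2 at an unadjusted p below 0.05 in each tool), and of 28 in total RNA libraries 0 (1 in edgeR and 0 in DESeq2), with medians of -0.04 and -0.03. Dkc1 and Nop56 are also on the list of particle genes. Dkc1 was among the 2 hosts with an unadjusted p below 0.05 in polyA by edgeR. Eef2 had log2 ratios of 0.04 and -0.02, and Rack1 0.05 and -0.03. Of 10 nonsense-mediated decay factors, 0 were called in polyA (0 unadjusted in each tool) and 0 in total RNA libraries (1 unadjusted in edgeR, 0 in DESeq2), with medians of 0.03 and 0.09. Upf1, the central helicase of that pathway, had -0.07 and -0.03, and the kinase gene Smg1 0.25 and 0.36. Between the kinds of library, 4 of 8 particle genes were called lower in total RNA (Nop58 -0.66, Nop10 -0.71, Dkc1 -0.49 and Nop56 -0.34). So were 9 of 29 protein-coding hosts, with Dkc1 and Nop56 counted in both lists. Of 13 assembly factors 0 were called (3 at an unadjusted p below 0.05, and 0 by DESeq2, with 2 unadjusted). Of 10 decay factors 1 was called lower, against 7.64% of all genes.

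Markers of other cell types were summed in the same libraries. The summed level of 7 neutrophil markers, all with counts in every polyA library, was 34.8 and 40 CPM in WT against 452 and 114 CPM in Mut-labelled polyA libraries. The 5 erythroid markers summed to 341 and 223 against 52.6 and 21.4 CPM, and the 5 B and plasma cell markers to 812 and 9440 against 360 and 2010 CPM, a list with 4 or 5 members detected per library. The 4 T cell markers, 3 of them with counts in each polyA library, summed to 9.19 and 8.2 against 8.43 and 5.47 CPM, and these groups overlapped. The 4 macrophage markers summed to 41.7 and 32.2 against 62.9 and 42.1 CPM, which did not overlap, although 3 of the 4 had negative log2 ratios (median -0.34) and Csf1r alone a positive one (1.40). The 4 stromal markers stood at 181 and 149 against 151 and 116 CPM and overlapped. In the total RNA libraries the groups were again apart for neutrophil (27 and 28.9 against 203 and 78 CPM) and erythroid markers (166 and 149 against 25.8 and 18.1 CPM). There T cell markers did not overlap (10.6 and 11 against 5.17 and 7.39 CPM), but these sums rest on few counts. Only 2 or 3 of the 4 had counts in a library, and the floor of 3 counts was 2.66 to 3.41 CPM. The groups overlapped for macrophage (25.1 and 32.9 against 31 and 50.1 CPM), stromal (139 and 114 against 171 and 83.7 CPM) and B and plasma cell markers (413 and 5630 against 254 and 1340 CPM). The part of these markers in the snoRNA and host values was not tested.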

How the data were processed

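The deposited table held raw counts per gene, whole numbers not normalised by the authors, with 1 column for each of 8 libraries. Per the submitters' processing notes, the build was mm9 and the tools included TopHat, featureCounts and edgeR; versions, annotation release, strand use and the handling of multiply mapped and overlapping reads were not given in the sources used here. Counts of near-identical snoRNA copies, of overlapping genes and of antisense entries are therefore uncertain. The table had 38086 entries: 37991 gene identifiers, 92 ERCC and 3 ribosomal RNA entries, the last 2 kinds left out of library sizes and tests. GENCODE M21 (GRCm38) gave symbols for 32919 identifiers and the lengths, positions and sequences of the members. It is another build than the authors', so no coordinates are printed.

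The tests used edgeR 4.0.16 under R 4.3.3 (TMM scaling, its filter on low counts with a minimum count of 10 and a minimum total of 15, quasi-likelihood test, two-sided, Benjamini-Hochberg adjustment over all genes tested, called at an adjusted p under 0.05), without a block. The SE of a log2 ratio was its size divided by the square root of edgeR's F statistic, so it is no separate measure. Alternatives were other size factors, ERCC scaling, no filter, DESeq2 1.42.0, a replicate block and leaving out each sample. The fits were tested on simulated data. Nothing in the labels says that samples came from separate animals, so p-values measure only spread between samples that may be technical. Libraries of a group differed beyond sampling noise (chi-square per degree of freedom 70 and 65.4 in polyA, 3.33 and 2.79 in total RNA). Polymerase chain reaction copies are not independent molecules, so floors cover counting error only.

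The polyA and total RNA libraries that bear the same sample name were taken as 1 sample, since their names match and the protocol makes both kinds from the purified RNA. The main fit between the kinds left this pairing out and treated the 8 libraries as independent, and only the alternative with the sample name as a block used it. Their deviations from the group means correlated at 0.403 in WT and 0.47 in Mut-labelled samples over 10509 genes.

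The members and gene lists were chosen with earlier results of these data known. Named members were the tested hosts, up to 10 called members per comparison by size of change, the 3 of smallest p in each genotype comparison, the 5 C/D box, 5 H/ACA box and 3 Cajal body entries of highest level in total RNA libraries, and the snoRNAs of Gas5 and Snhg1. From the lists, called genes (up to 5) or else the 2 most abundant were to be named. That rule was not kept throughout. Called hosts, decay factors and markers stand unnamed, and some other genes were named. Length groups, exon position, the restriction to entries with counts in every group and the count by library number were set after the values were seen.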

Additional observations from a re-analysis of the deposited data

How the results depend on the processing

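With ERCC scaling the genes called in polyA libraries between genotypes went from 624 to 170, and with DESeq2 to 1615. Over the fits that left out 1 library they ranged from 602 to 815, and members called stayed at 0 under every alternative run there. In total RNA libraries the 446 genes went to 724 with no filter and to 199 with DESeq2, with a range of 381 to 598 over left-out libraries. Members called there went from 0 to 2 without Mut-labelled replicate 2 (Snord118 and Snord17), a range of 0 to 2. Between the kinds of library, the 2634 genes went to 245 with ERCC scaling and 4518 with no TMM, and to 558 without WT replicate 1, 1292 without WT replicate 2, 492 without Mut-labelled replicate 1 and 926 without Mut-labelled replicate 2, so each left-out sample moved the count by over 1.5 times, while members called ranged from 23 to 30 against 33. The interaction had 12 calls with DESeq2 and 0 to 1 over left-out samples (1 without Mut-labelled replicate 1), none a member. Where a library was left out, the lone sample of its group was assumed to vary like the others.

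The number in the sample name gave WT and Mut-labelled libraries a correlation of deviations of 0.345 in polyA and 0.248 in total RNA, with 2 pairs that share only a number. With this number as a replicate block, 2870 genes were called in polyA, 870 in total RNA, and 111 in the interaction. Scarna10 was then called in total RNA (0.43, adjusted p = 0.0171), the 1 member gained. Between the kinds, the block by sample name gave 4895 genes.

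Members with counts in total RNA libraries went from 80 to 41 at a minimum of 10 counts and to 47 with counts in every library. The ratio of member shares went from 4.55 to 0.265 over all counts and to 3.29 over ERCC counts, and ranged from 4.15 to 4.71 over left-out samples.

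Of the named members' values, 24 changed direction, 9 of them with ERCC scaling, which moved the median of all genes to -1.10 in total RNA between genotypes and to -0.80 between the kinds. Those 9 moved together with all genes and say nothing of these members alone. In polyA between genotypes, over left-out libraries, Snhg15 ranged from -0.16 to 0.057 and Snord104 from -0.33 to 0.23 (positive without WT replicate 1), Scarna2 from -0.40 to 0.14 (positive without WT or Mut-labelled replicate 1) and Snhg17 from -0.48 to 0.049 (positive without Mut-labelled replicate 1). In total RNA with ERCC scaling, Snhg17 (-0.76), Scarna10 (-0.61), Snora21 (-0.35), Snord13 (-0.30), Snord118 (-0.58), Scarna2 (-1.02) and Snord17 (-0.61) went below 0 with that shift. Over left-out total RNA libraries, Snhg12 ranged from -0.29 to 0.018 and Snhg17 from -0.057 to 0.67 (turned without WT replicate 1), Snhg20 from -0.49 to 0.37 (without WT replicate 2), Snord118 from -0.64 to 0.99, Snord17 from -0.43 to 0.83 and Scarna2 from -0.017 to 0.11 (without Mut-labelled replicate 1), and Snhg15 from -0.23 to 0.060 (without Mut-labelled replicate 2). Between the kinds, Snhg15 (-0.61) and Snord104 (-0.12) did so with ERCC scaling. Snhg15 also turned with no TMM (-0.093), which moved the median of all genes from -0.10 to -0.26, and without WT replicate 2 or Mut-labelled replicate 1, over a range of -0.031 to 0.17. None of these was called in the direction it turned to, and the cause was not tested. The depth of the total RNA libraries left 28 members to test between genotypes.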
